A study of Mus musculus with 24 samples.

Results

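Flt3 and 9 further genes that mark lymphoid priming in early blood progenitors (Il7r, Dntt, Rag1, Satb1, Notch1, Ccr9, Ebf1, Igll1 and Vpreb1) were followed in bulk RNA-seq libraries of mouse bone marrow LSKs, the Lin-Sca-1+c-Kit+ fraction that holds stem cells and multipotent progenitors. The 10 genes were taken by symbol from a table of 24091 genes, with earlier results of these data known, and all 10 were found in it. The 24 libraries came from 4 groups of 6 C57BL/6 mice, 3 females and 3 males each, with 1 mouse per library. WT mice had the microRNA gene miR-142 intact, miR-142 KO mice were miR-142-/-, and BCR-ABL was not part of either genotype. CP CML mice were miR-142+/+ and carried BCR-ABL, the fusion oncogene of chronic myeloid leukemia (CML). BC CML mice were miR-142-/- and carried the same transgene, so that loss of miR-142 was the difference between the chronic phase (CP) and blast crisis (BC) models. BCR-ABL was expressed from the SCLtTA driver after tetracycline withdrawal, 2 weeks before the sort, and was therefore limited to cells in which the SCL promoter is active. The miR-142-/- genotype was that of the whole animal, not of the LSKs alone, and the age of the animals is not given in the sources used here.

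Part of the LSK fraction, the lymphoid-primed multipotent progenitor, carries FLT3 at high density on its surface and has begun to transcribe genes of B and T cell development before it commits to either lineage. FLT3 is a receptor tyrosine kinase, and IL7R is the alpha chain of the IL-7 receptor that takes over from it in common lymphoid progenitors. DNTT and RAG1 act on antigen receptor genes, RAG1 as part of the recombinase that cuts them and DNTT as the polymerase that adds untemplated bases at the joints. SATB1 organizes chromatin in early lymphoid progenitors, NOTCH1 is the receptor whose signal directs T cell fate, and CCR9 is a chemokine receptor for entry into the thymus. EBF1 is the factor that specifies B cells, and IGLL1 and VPREB1 form the surrogate light chain of the pre-B cell receptor. In a sorted bulk population, fewer cells of a type and less RNA per cell cannot be told apart.

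Because the groups differ in miR-142, the RefSeq sequences of its mature arms (GRCm38.p6, both on the plus strand of chromosome 11) are given first, with the seed, bases 2 to 8, in capitals. The 5p arm lies at chr11:87756867-87756887 and the 3p arm at chr11:87756903-87756925.
mmu-miR-142a-5p: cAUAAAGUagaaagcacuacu
mmu-miR-142a-3p: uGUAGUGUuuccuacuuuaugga
The letters complementary to each seed were searched for on the sense strand of 1 annotated 3' UTR per gene (GENCODE M21, GRCm38, which is mm10). ACTTTAT, the match to the 5p seed, was present in 15.9% of 12618 3' UTRs, and ACACTAC, the match to the 3p seed, in 6.97%. Of the 10 genes, Rag1 held 1 of each and Ccr9 held 1 match to the 3p seed, whereas the 3' UTRs of the other 8 held neither. The stretches around these matches are shown 5' to 3' on the strand of the gene, with the match in capitals.
Rag1, 5p seed match at chr2:101638513-101638541 (minus strand): ggttgtattttACTTTATtattattgtta
Rag1, 3p seed match at chr2:101640304-101640332 (minus strand): atctacactaaACACTACagtttataatc
Ccr9, 3p seed match at chr9:123782992-123783020 (plus strand): ggagtttgggaACACTACaggaaacacag
A match of letters is a description and does not show that miR-142 acts there.

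Flt3 and Rag1 varied together among mice of a group, as described further on, although Flt3 varied more closely with Dntt and Satb1. As examples, the 250 bases before the RefSeq start sites of Flt3 and Rag1 are shown on the strand of each gene. Capitals mark E-box letters (CAGNTG, the core read by E2A and related factors) and the core read by Ikaros (TGGGAA), each searched on both strands. E-box letters were found in 44.8% of 32851 mouse windows of this length, and the Ikaros core in 21.6%.
Flt3, chr5:147400490-147400739 (minus strand): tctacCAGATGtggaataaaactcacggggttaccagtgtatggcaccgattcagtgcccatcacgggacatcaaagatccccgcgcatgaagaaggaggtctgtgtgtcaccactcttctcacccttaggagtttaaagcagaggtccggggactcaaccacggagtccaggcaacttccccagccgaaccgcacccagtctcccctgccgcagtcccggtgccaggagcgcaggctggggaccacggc
Rag1, chr2:101649533-101649782 (minus strand): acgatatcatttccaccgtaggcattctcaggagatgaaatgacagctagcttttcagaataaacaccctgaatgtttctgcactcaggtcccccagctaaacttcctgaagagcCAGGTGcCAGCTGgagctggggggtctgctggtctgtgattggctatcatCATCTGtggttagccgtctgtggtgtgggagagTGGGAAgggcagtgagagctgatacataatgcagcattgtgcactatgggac
The Rag1 window held 3 E-box matches and 1 Ikaros match, and no 2 of them overlapped. The Igll1 window also held 3 E-box matches, the windows of Flt3, Il7r, Ccr9 and Vpreb1 held 1 each, and those of Dntt and Notch1 held 0. Satb1 had 5 windows and Ebf1 had 2, which are not counted here. Whether these letters have a part in how the genes varied was not tested.

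Reads of Mir142 itself, the gene removed in the knockouts, were absent from every miR-142 KO and BC CML library (0 counts in each), while WT libraries had 94 to 127 counts and CP CML libraries 68 to 153. Total counts per library ran from 16267965 to 24687077. Of 24091 genes, 13520 passed the filter on low counts, the 10 followed here among them. Of the gate markers, Kit averaged 978 ± 169 CPM (a gene's count relative to all counts of its library; mean ± SD over 6 mice) for WT, 798 ± 126 for miR-142 KO, 1113 ± 103 for CP CML and 774 ± 38.8 for BC CML. Ly6a, which encodes Sca-1, averaged 43.5 ± 7.98, 91.8 ± 39.9, 52.1 ± 13.2 and 106 ± 15.9 CPM in the same order, and its level followed the miR-142 genotype (adjusted p = 0.000201 for miR-142 KO against WT and 0.000333 for BC CML against CP CML). Among antigens of the lineage gate, Cd3e, Cd3d, Cd8a and Ly6g averaged at most 1.12 CPM in any group. Cd4 averaged 10.48 CPM for WT, 4.05 for miR-142 KO, 10.8 for CP CML and 4.87 for BC CML. Myeloid antigens were higher, Itgam, which encodes CD11b, at 73.4 to 91.5 CPM, and Ly6c2 at 34.2 CPM for WT and 90.3 to 103 CPM for the other groups. In the miR-142 KO group 3 libraries stood apart. Replicate 3 had the lowest level of 8 of the 10 genes in its group, all but Il7r and Ccr9, together with the lowest summed level of 7 neutrophil-primed progenitor genes (2661 CPM, against 6314 to 7586 in the other 5), and replicates 1 and 2 had the highest Ccr9 and Il7r. Results for the 10 genes that change with these libraries are given with and without them. Exons of Rag1, Satb1, Notch1, Ccr9 and Vpreb1 overlap those of other annotated genes, by 1932 bases at most (Ccr9), and the strand setting of the counting is not given in the sources used here.

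Levels were compared between genes per kb of the length in the deposited table (RPKM, the CPM divided by that length). In WT LSKs, Dntt had the highest mean of the 10 genes at 467 ± 100 RPKM (SD, n = 6), followed by Flt3 at 250 ± 35.9 RPKM. Satb1 at 45.1 ± 6.65 RPKM and Notch1 at 34.2 ± 7.68 RPKM came next. Il7r stood at 12.8 ± 4.22 RPKM. Rag1, at 3.66 ± 2.73 RPKM, and Ccr9, at 2.46 ± 1.11 RPKM, had low levels that overlapped between mice. The 3 genes of the B lineage program had the lowest levels per length, with means of 0.558 RPKM for Vpreb1, 0.467 for Ebf1 and 0.384 for Igll1. Ebf1 had 46 to 207 counts per WT library, Igll1 4 to 33 and Vpreb1 5 to 13. The WT LSK pool therefore held abundant transcripts of Flt3 and Dntt and few of the pre-B cell genes.

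**Figure D1:**
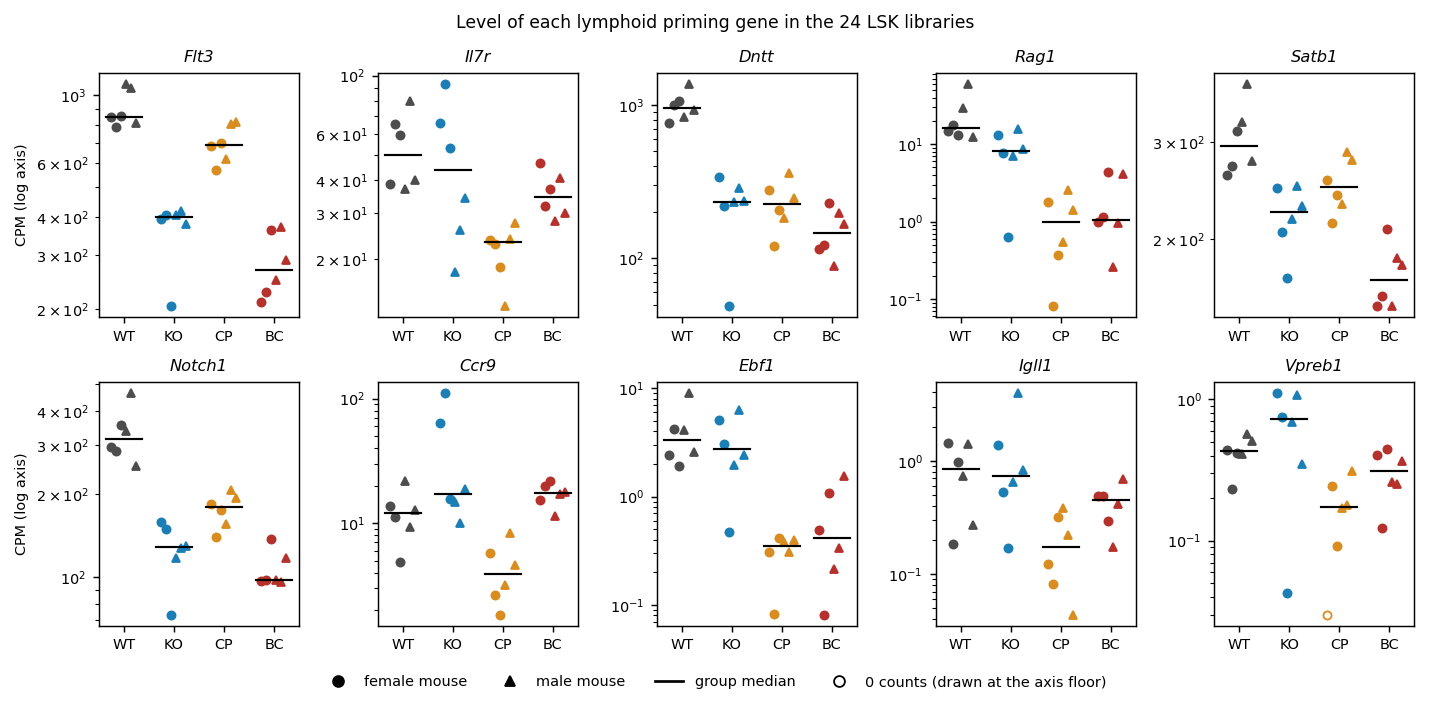
Level of each of the 10 genes in every library, in CPM on a log axis whose range differs between panels, for WT, miR-142 KO (KO), CP CML (CP) and BC CML (BC). Circles are female and triangles male mice, lines are group medians, and 1 CP CML library without Vpreb1 counts is drawn at the floor. Flt3, Satb1 and Notch1 were lowest in BC CML by median, Dntt was highest in WT, and Rag1 and Ebf1 were low in both BCR-ABL groups.

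The first question was what loss of miR-142 did in BCR-ABL LSKs, the comparison of BC CML with CP CML. Of the 10 genes, 2 were higher (Ccr9 and Il7r) and 3 lower (Flt3, Satb1 and Notch1) in BC CML at an adjusted p below 0.05 (edgeR's quasi-likelihood test, Benjamini-Hochberg over all 13520 genes), where 20.4% of all genes tested were called higher and 17.6% lower. Flt3 and Notch1, receptors used by lymphoid-primed progenitors, thus fell in the blast crisis model, while transcripts of Il7r and Ccr9, both receptors of later lymphoid stages, rose from low levels. With upper-quartile scaling the share of higher calls among all called genes moved from 53.7% to 42.4%, and the count for the 10 genes became 1 higher and 3 lower.

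Flt3 (chr5:147330742-147400489, minus strand, mm10 as are the other positions of genes) ran from 569 to 819 CPM in CP CML with a median of 689 CPM, and from 212 to 372 CPM in BC CML with a median of 269 CPM. The lowest CP CML mouse was above the highest BC CML mouse. The fitted level was 2.34-fold lower in BC CML (log2 fold change -1.23, SE 0.15, adjusted p = 1.05e-06). Notch1 (chr2:26457902-26503822, minus strand) ran from 139 to 206 CPM in CP CML, where the median was 179.9 CPM, and from 96.3 to 137 CPM in BC CML, where it was 97.6 CPM. Its groups did not overlap either, although the highest BC CML mouse lay close to the lowest CP CML mouse, and the fitted change was -0.65 on the log2 scale (SE 0.15, adjusted p = 0.00155). Satb1 (chr17:51736187-51833290, minus strand) had a range of 214 to 288 CPM (median 248) with miR-142 present and of 152 to 209 CPM (median 169) without it. The change was the smallest of the 3 at -0.48 (SE 0.10, adjusted p = 0.000516), again with no overlap.

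Ccr9 (chr9:123678096-123783457, plus strand) ran from 1.84 to 8.36 CPM in CP CML and from 11.4 to 21.9 CPM in BC CML, with medians of 3.89 and 17.5 CPM. Every BC CML mouse had more Ccr9 than every CP CML mouse, and the fitted rise was 4.12-fold (log2 fold change 2.04, SE 0.50, adjusted p = 0.00262). Il7r (chr15:9506159-9529876, minus strand) ran from 13.3 to 27.4 CPM in CP CML and from 27.8 to 46.3 CPM in BC CML, with medians of 23.3 and 34.5 CPM. The groups were separated by less than 1 CPM, the log2 fold change was 0.79 (SE 0.30, adjusted p = 0.0388), and the call did not survive upper-quartile scaling (adjusted p = 0.0503). It was also lost in 9 of 24 fits with 1 library left out, namely CP CML replicates 1 to 5 and BC CML replicates 1, 2, 3 and 5 (log2 fold change 0.67 to 0.85 and adjusted p of 0.0181 to 0.0961 over the 24 fits). The Ccr9 row of the deposited table spans Slc6a20a and Lztfl1 on the other strand, and exons of Ccr9 share 1932 bases with AC165425.1 on the opposite strand, 269 with Gm17200 on the same strand and 22 with Slc6a20a.

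Dntt (chr19:41029275-41059525, plus strand) ran from 121 to 361 CPM in CP CML and from 89.6 to 228 CPM in BC CML. The ranges overlapped broadly, and the log2 difference of -0.54 did not pass the test (95% confidence interval -1.16 to 0.09, adjusted p = 0.169). Rag1, Ebf1, Igll1 and Vpreb1 had log2 differences of 0.89, 1.03, 1.16 and 0.86 that did not pass (adjusted p of 0.341, 0.218, 0.193 and 0.211). These rested on 2 to 58 Rag1 counts, 2 to 9 Ebf1 counts, 1 to 9 Igll1 counts and 0 to 7 Vpreb1 counts per CP CML library, and their 95% intervals reached from below 0 to 1.97 or above, so that neither no difference nor one of several fold lay outside them. Over the 10 genes the median log2 difference was 0.83, against 0.01 over all genes tested, since the low genes all had positive values. The CP CML and BC CML ranges did not overlap for 5 of the 10 genes, against 21.2% of all genes tested.

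**Figure D2:**
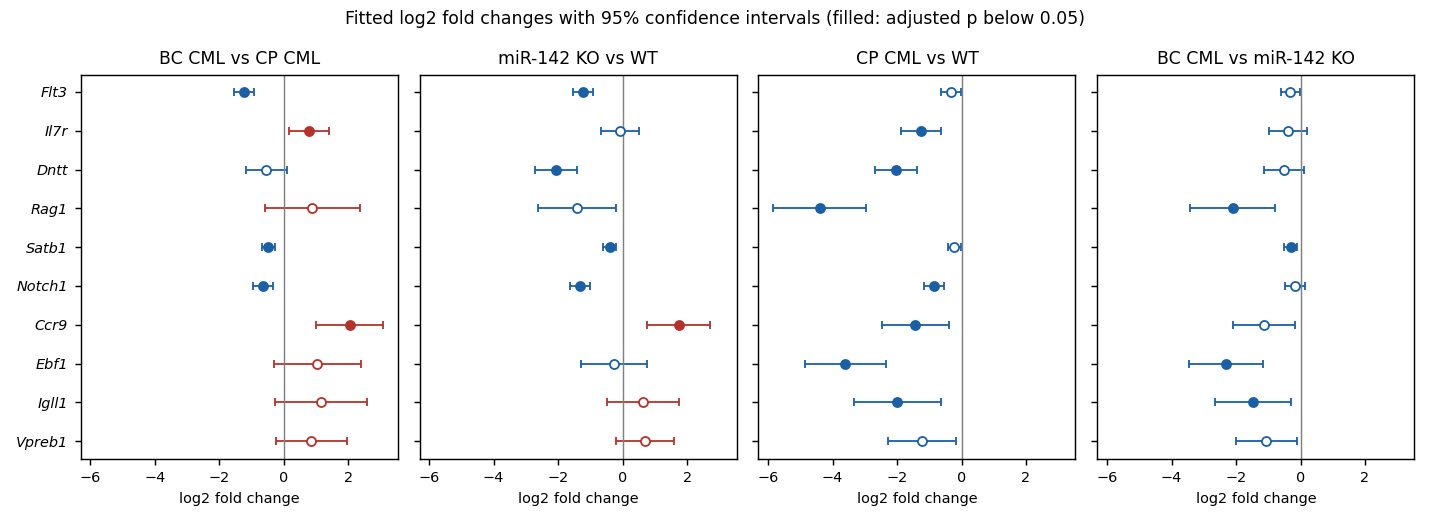
Fitted log2 fold changes of the 10 genes with 95% confidence intervals in 4 comparisons, filled where the adjusted p is below 0.05 and red where the estimate is above 0. Flt3 lay at -1.23 and -1.24 in the comparisons for miR-142 and at -0.32 in both comparisons for BCR-ABL, while Rag1 and Ebf1 had their lowest values in CP CML against WT.

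The next comparison, miR-142 KO against WT, asked what the same deletion did in normal LSKs. Here 1 of the 10 genes was higher (Ccr9) and 4 were lower (Flt3, Dntt, Satb1 and Notch1), where 19.9% of all genes tested were called higher and 16.4% lower. The receptor genes Flt3 and Notch1 and the recombination polymerase Dntt accounted for the large decreases. With upper-quartile scaling the share of higher calls over all genes moved from 54.7% to 42.0%, and the 10 genes kept 1 higher and 4 lower call.

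Flt3 ran from 786 to 1086 CPM in WT with a median of 852 CPM, and from 205 to 419 CPM in miR-142 KO with a median of 399.9 CPM. All 6 knockout mice were below all 6 WT mice, and 5 of them lay close together between 381 and 419 CPM. The fitted level was 2.35-fold lower (log2 fold change -1.24, SE 0.15, adjusted p = 9.16e-07), and without replicate 3 the change was -1.11 (adjusted p = 5.88e-07). Dntt ran from 763 to 1361 CPM in WT and from 49.0 to 340.3 CPM in miR-142 KO, with medians of 957 and 233 CPM. This was the largest decrease of the 10 genes here, 4.18-fold (log2 fold change -2.06, SE 0.31, adjusted p = 1.80e-05), and it remained -1.85 without replicate 3. Notch1 ran from 253 to 464 CPM in WT and from 73.2 to 159 CPM in miR-142 KO. Its fitted level was 2.52-fold lower (log2 fold change -1.33, SE 0.15, adjusted p = 4.01e-07). Satb1 ran from 262 to 382 CPM in WT and from 170.1 to 249.7 CPM in miR-142 KO, and fell by 0.40 on the log2 scale (SE 0.10, adjusted p = 0.00236).

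Rag1 (chr2:101638252-101649532, minus strand) ran from 12.3 to 59.2 CPM in WT and from 0.637 to 15.6 CPM in miR-142 KO, with medians of 16.2 and 8.18 CPM. The ranges overlapped, and the log2 difference of -1.41 (SE 0.59) missed the threshold (adjusted p = 0.0633). Ebf1 (chr11:44618100-45008096, plus strand) had medians of 3.32 CPM in WT and 2.73 CPM in miR-142 KO, with a log2 difference of -0.27 (95% confidence interval -1.28 to 0.75, adjusted p = 0.698). Igll1 (chr16:16860671-16863985, minus strand) and Vpreb1 (chr16:16868401-16869255, minus strand) had estimates above 0, 0.64 and 0.70, with adjusted p of 0.371 and 0.222, and without miR-142 KO replicate 3 Vpreb1 passed at 0.95 (adjusted p = 0.0431). Rag1 passed at -1.64 without miR-142 KO replicate 5 (adjusted p = 0.0466). Counts of these 3 genes of the B lineage program were 1 to 207 per library, and over all mice none had a detectable change with miR-142 loss in normal LSKs. The WT and miR-142 KO ranges did not overlap for 4 of the 10 genes, against 14.3% of all genes tested.

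Ccr9 needs its libraries read separately. It ran from 4.91 to 21.7 CPM in WT, whereas in miR-142 KO it was 63.2 CPM in replicate 1, 111 CPM in replicate 2 and 10.1 to 18.9 CPM in the other 4 mice. The log2 fold change over all 6 mice was 1.73 (SE 0.48, adjusted p = 0.00625) and held when any 1 library was left out (1.08 to 1.97). With replicates 1 and 2 both left out, an alternative chosen after their values were seen, it was 0.36 with an adjusted p of 0.418, and the count for the 10 genes became 0 higher and 4 lower. Over all genes that fit called 2584 higher and 1990 lower. The same 2 mice had the highest Il7r of the group, 66.2 and 92.6 CPM against 17.9 to 52.8 CPM in the other 4, and over all mice Il7r was at 0.95-fold of WT (log2 difference -0.08, 95% confidence interval -0.68 to 0.52, adjusted p = 0.856). Without replicates 1 and 2 the Il7r difference was -0.62, with an adjusted p of 0.0734. All 3 female knockouts had more Il7r (52.8 to 92.6 CPM) than all 3 male knockouts (17.9 to 34.3 CPM).

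Some genes of T cells and innate lymphocytes were also high in these 2 libraries, both from females. Of 9 tested T or NK cell genes, 4 were higher and 4 lower in miR-142 KO than WT, and 2 were higher and 3 lower in BC CML than CP CML. Among the lower ones, Lck, a kinase of T cell receptor signalling, fell by 1.41 and 1.05, and Cd4, a T cell coreceptor, by 1.31 and 1.09. The summed level of 13 T or NK cell genes was 178 and 219 CPM in replicates 1 and 2 and 139 to 173 CPM in the other 4 knockouts. Il2rb, the IL-2 receptor beta chain, was at 26.6 and 46.9 CPM in replicates 1 and 2 and between 1.04 and 21.4 CPM in the others, and Gata3, a factor of T cells and innate lymphocytes, was at 96.4 and 149 CPM against 31.2 to 68.4 CPM. Cd3e, a T cell receptor subunit named here after its values were seen, was at 1.46 and 4.05 CPM against 0 to 0.951 CPM. Replicate 3 was the third female knockout, and its Gata3 of 68.4 CPM also lay above the 31.2 to 46.6 CPM of the 3 males. Il2rb and Cd3e did not split by sex, as male replicate 6 had more of both than replicate 3 (21.4 against 9.82 CPM and 0.951 against 0.255 CPM). Sex within this group alone was not tested. In BC CML the T or NK cell sum was 109 to 141 CPM against 97.9 to 119 CPM in CP CML, Gata3 was at 40.6 to 72.8 CPM against 9.91 to 17.3 CPM, and Cd3e did not exceed 0.346 CPM. Cd8a and Cd3d averaged at most 0.439 CPM in any of the 4 groups. The part of these genes in the Ccr9 and Il7r results was not tested.

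The comparisons of BC CML with CP CML and of miR-142 KO with WT share no library, and their difference was tested directly as an interaction over the 4 groups. For Flt3 the effect of miR-142 loss differed by 0.007 on the log2 scale between BCR-ABL and normal LSKs, with a 95% confidence interval of -0.42 to 0.44 (adjusted p = 0.992). Of the 10 genes, 1 was called, where 3.99% of all genes tested were called in either direction. That gene was Dntt, whose difference between BC CML and CP CML lay 1.53 above the decrease in miR-142 KO (SE 0.43, adjusted p = 0.0440). The call was lost in 18 of 24 fits with 1 library left out (estimates of 1.29 to 1.66, adjusted p of 0.0208 to 0.0868), and held only without WT replicate 4, miR-142 KO replicate 1, 3 or 5, CP CML replicate 5 or BC CML replicate 4. Notch1 fell less in BCR-ABL LSKs by estimate, 0.68 (95% confidence interval 0.25 to 1.12), with an adjusted p of 0.0676. Rag1 had the largest estimate, 2.30, but also the widest interval, 0.39 to 4.20 (adjusted p = 0.163). With miR-142 KO replicates 1 and 2 both left out, an alternative chosen after their values were seen, 4 of the 10 genes were called. These were Dntt, Il7r, Notch1 and Ccr9, with adjusted p between 0.0336 and 0.0487. In that fit 186 of all genes were called above 0 and 276 below 0, against 258 and 281 over the 24 libraries.

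CP CML against WT gave the effect of BCR-ABL with miR-142 present, and shares its libraries with the comparisons above. None of the 10 genes was called higher and 7 were called lower, where 22.5% of all genes tested were called higher and 22.9% lower. With upper-quartile scaling 9 were lower, and the share of higher calls over all genes moved from 49.6% to 41.6%, with 3702 of all genes lower. The likelihood ratio test, DESeq2 and the fit with sex each gave 8 lower. These fits called 3033, 3187 and 3220 of all genes lower, against 3098 in the main fit. Rag1 and Ebf1 had the largest decreases. Rag1 fell from 12.3 to 59.2 CPM in WT to 0.0818 to 2.58 CPM in CP CML, a fitted 21.1-fold decrease (log2 fold change -4.40, SE 0.70, adjusted p = 3.70e-05). Ebf1 fell from 1.93 to 9.02 CPM to 0.0818 to 0.414 CPM, a fitted 12.2-fold decrease (log2 fold change -3.61, SE 0.61, adjusted p = 6.34e-05), on 2 to 9 counts per CP CML library. In both genes every CP CML mouse lay below every WT mouse. Igll1 fell by 1.99 on the log2 scale (SE 0.66, adjusted p = 0.0167), from 4 to 33 counts per WT library to 1 to 9 counts per CP CML library, with ranges that overlapped.

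Dntt fell 4.10-fold in CP CML against WT (log2 fold change -2.04, SE 0.31, adjusted p = 2.46e-05), a decrease that brought its median to 226 CPM beside 233 CPM in miR-142 KO. Il7r fell by 1.26 (SE 0.30, adjusted p = 0.00165) with no overlap, from at least 37.1 CPM in every WT mouse to at most 27.4 CPM in CP CML. Notch1 fell by 0.87 (SE 0.15, adjusted p = 8.53e-05), also with no overlap. Ccr9 fell by 1.43 (SE 0.50, adjusted p = 0.0236), a call that was lost when WT replicate 4 or CP CML replicate 2, 3 or 4 was left out (adjusted p up to 0.0707). Flt3 was the gene least separated from WT by fold after Satb1. Its log2 difference was -0.32 (95% confidence interval -0.63 to -0.02, adjusted p = 0.0753), and Satb1 had -0.23 (adjusted p = 0.0610), neither past the threshold. Flt3 passed when only the 12 libraries compared were fitted (-0.32, adjusted p = 0.0185) and without miR-142 KO replicate 3, a library outside the comparison that enters the shared estimate of spread (adjusted p = 0.0345). Satb1 passed with upper-quartile scaling (adjusted p = 0.0362), with sex as a covariate (adjusted p = 0.0496) and without WT replicate 1 or 6 or CP CML replicate 5 (adjusted p down to 0.0319). Vpreb1 also missed it, with a log2 difference of -1.23 and an adjusted p of 0.0555, but passed with the likelihood ratio test (0.0289), upper-quartile scaling (0.0481) and DESeq2 (0.0497), and without WT replicate 2, miR-142 KO replicate 3 or CP CML replicate 6 (adjusted p of 0.0187 to 0.0474). The WT and CP CML ranges did not overlap for 5 of the 10 genes, against 22.1% of all genes tested.

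BC CML against miR-142 KO gave the effect of BCR-ABL in the absence of miR-142, again with shared libraries. None of the 10 genes was called higher and 4 were called lower (Rag1, Satb1, Ebf1 and Igll1), where 20.3% of all genes tested were called higher and 19.3% lower. Rag1 had medians of 8.18 CPM in miR-142 KO and 1.06 CPM in BC CML (log2 fold change -2.11, SE 0.64, adjusted p = 0.0121). Ebf1 had medians of 2.73 and 0.411 CPM (log2 fold change -2.31, SE 0.55, adjusted p = 0.00242). Satb1 fell by 0.30 (SE 0.10, adjusted p = 0.0181). Igll1 fell by 1.47 (SE 0.58, adjusted p = 0.0453), but miR-142 KO replicate 5, at 3.94 CPM against at most 1.37 CPM in the other 5, decided this value, and without it the log2 difference was -0.68 with an adjusted p of 0.312. The Igll1 call was also lost without miR-142 KO replicate 1 or any of BC CML replicates 1 to 5 (adjusted p up to 0.0915). It was lost too without the filter on low counts (0.0557), with sex as a covariate (0.0561) and with only the 12 libraries compared (0.0703), fits that each called 3 of the 10 genes lower. The likelihood ratio test called 6 of the 10 lower, with 2558 of all genes lower. None of the 10 genes was free of overlap between these groups, against 11.2% of all genes tested.

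Flt3 had medians of 399.9 and 269 CPM in miR-142 KO and BC CML, a log2 difference of -0.32 that did not pass (95% confidence interval -0.62 to -0.01, adjusted p = 0.0906). Replicate 3 of the miR-142 KO group, whose Flt3 of 205 CPM was below all 6 BC CML mice, mattered here. Without it 8 of the 10 genes were called lower in BC CML, Flt3 at -0.44 (adjusted p = 0.00530) and Dntt at -0.73 (adjusted p = 0.0131) among them. Over the 24 fits with 1 library left out, 4542 to 6471 of all genes were called in either direction, against 5358 with none left out. The number for the fit without replicate 3 alone is not given here. Flt3 also passed without BC CML replicate 3 or 5 (-0.41, adjusted p of 0.0376 and 0.0374). Ordered by mean, Flt3 was highest in WT at 908 ± 130 CPM, then came CP CML at 698 ± 99.9 CPM, miR-142 KO at 369 ± 81.0 CPM and BC CML at 286 ± 68.5 CPM (SD, n = 6). The neighbours WT and CP CML, and miR-142 KO and BC CML, overlapped and did not pass the test over all 24 libraries, with the exceptions given above, whereas the lowest CP CML mouse stood above the highest miR-142 KO mouse.

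Sex was balanced in every group and was tested with group in the model. None of the 10 genes was called between males and females, where 0.651% of all genes tested were called in either direction, and the likelihood ratio test of edgeR and DESeq2 also called 0 of the 10. At an unadjusted p below 0.05 in edgeR's quasi-likelihood test there were 2. In males Flt3 stood 0.21 higher on the log2 scale (adjusted p = 0.258), and Il7r was at -0.44 (adjusted p = 0.243).

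The genes around these 10 were read from lists of other lymphoid genes. Of 14 further lymphoid progenitor markers, 7 were lower and 2 higher in BC CML than CP CML, with a median log2 difference of -0.58 against 0.01 over all genes. In miR-142 KO against WT, 7 were lower and 1 higher. Lax1, an adaptor that dampens lymphocyte signalling, fell by 1.25 in BC CML (adjusted p = 2.23e-06) and by 1.52 in miR-142 KO (adjusted p = 1.41e-07). Rag2, the partner of Rag1 in the recombinase, fell by 1.56 in miR-142 KO (adjusted p = 7.40e-05) and by 2.94 in CP CML against WT (adjusted p = 7.73e-08), and had a log2 difference of 0.43 between BC CML and CP CML (adjusted p = 0.238). Its interaction was 2.00 (adjusted p = 0.00511). Ccr7, a chemokine receptor of lymphocytes, was low throughout, at 4.13 CPM in WT and 0.509 CPM in BC CML by mean, and fell by 1.43 in BC CML against CP CML (adjusted p = 0.00453).

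Of 25 tested lymphoid transcription factors, 8 were higher and 8 lower in BC CML than CP CML, and 8 were higher and 7 lower in miR-142 KO than WT. Gata3 rose by 2.15 in BC CML (adjusted p = 4.21e-06) and by 1.89 in miR-142 KO (adjusted p = 1.49e-05), where the mice other than replicates 1 and 2 ran from 31.2 to 68.4 CPM, above the WT range of 16.5 to 29.5 CPM. Ikzf2 rose by 0.37 in BC CML and by 0.54 in miR-142 KO (adjusted p = 0.000304 and 3.33e-06). Bcl11a, needed for lymphoid development, fell by 0.57 in both (adjusted p = 5.10e-06 and 5.66e-06), and Sox4, a factor of early B and T cells, fell by 0.54 and 0.63. In the comparisons for BCR-ABL, 10 factors were lower and 3 higher in CP CML than WT, and 13 lower and 3 higher in BC CML than miR-142 KO. Of 12 genes of the recombination machinery, 7 were lower and 0 higher in CP CML than WT. In BC CML against CP CML 2 of the 12 were higher and 2 lower, with a median log2 difference of 0.07. Xrcc5, the Ku80 subunit of the end-joining complex, fell by 0.77 in that comparison (adjusted p = 9.18e-06). Xrcc6 and Xrcc4 had differences of -0.04 and -0.08 there that did not pass (adjusted p = 0.557 and 0.439).

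Of 10 tested genes of the pre-B cell receptor and B lineage, 3 were lower and 0 higher in BC CML than CP CML, and 3 were lower and 1 higher in miR-142 KO than WT. Pou2af1, a coactivator of immunoglobulin genes, ran from 8.13 to 47.5 CPM in CP CML and from 0.163 to 0.998 CPM in BC CML (log2 fold change -5.53, adjusted p = 1.04e-06). Unlike Rag1 and Ebf1 it was not lower in CP CML than WT by estimate (log2 difference 1.09, adjusted p = 0.0836). Jchain, the joining chain of secreted immunoglobulin and a member of the mature B or plasma cell list, averaged 438 ± 381 CPM for WT and 2.97 ± 2.48 CPM for miR-142 KO mice, and 335 ± 199 CPM for CP CML and 4.89 ± 3.91 CPM for BC CML mice (SD, n = 6). Ms4a1, a defining marker of B cells, averaged at most 0.688 CPM in any group. The summed level of the 9 mature B or plasma cell genes in the table spanned 171 to 1150 CPM for WT, 131 to 175 for miR-142 KO, 325 to 992 for CP CML and 194 to 270 for BC CML, and its part in the results for the 10 genes was not tested.

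**Figure D3:**
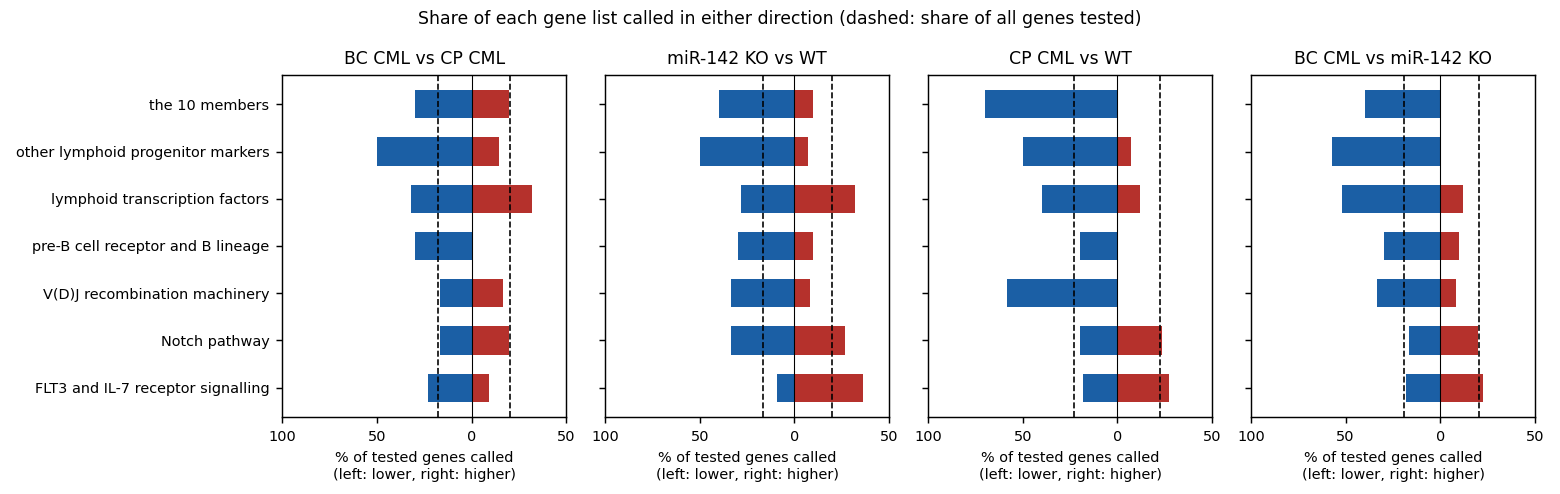
Percent of the tested genes of each list that were called higher (red, to the right) or lower (blue, to the left) in 4 comparisons, with dashed lines at the share of all genes tested. The 10 genes, the other lymphoid progenitor markers and the lymphoid transcription factors reached past the dashed line to the left in all 4 comparisons, with 3 to 7 of the 10 genes lower. The transcription factors also reached past the line to the right in both comparisons for miR-142 loss. The Notch pathway list stayed near the lines in BC CML against CP CML.

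The 30 tested genes of the Notch pathway were mixed. In BC CML against CP CML, 6 were higher and 5 lower, with a median of 0.002 that turned to -0.04 with upper-quartile scaling. In miR-142 KO against WT, 8 were higher and 10 lower. Il2ra, a target of Notch signalling in thymocytes and the IL-2 receptor alpha chain, had the largest rise among the named genes of this list, from 0.318 to 7.48 CPM in WT to 20.7 to 175 CPM in miR-142 KO (log2 fold change 5.22, adjusted p = 5.75e-07) and from 7.83 to 22.9 CPM in CP CML to 102 to 186 CPM in BC CML (3.44, adjusted p = 1.95e-05). The miR-142 KO mice other than replicates 1 and 2 had 20.7, 25.2, 29.1 and 114 CPM of Il2ra, all above the WT range. The 114 CPM belonged to replicate 3, a female as were replicates 1 and 2, and the lower values to the males. Adam10, the protease that cuts ligand-bound Notch, rose by 0.46 and 0.36 in the comparisons for miR-142 loss, and the coactivators Maml2 and Maml3 fell by 0.45 to 0.65. Of 22 genes of FLT3 and IL-7 receptor signalling, 2 were higher and 5 lower in BC CML than CP CML, and 8 were higher and 2 lower in miR-142 KO than WT. The adaptor Sh2b3, a brake on cytokine receptors, rose by 0.38 and 0.35 (adjusted p = 0.000125 and 0.000231), and Cblb, a ubiquitin ligase, fell by 0.41 and 0.23.

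Markers of other cell types moved with the same groups. Of 7 neutrophil-primed progenitor genes, all 7 were higher in miR-142 KO than WT, 5 were higher in CP CML than WT and 3 were higher in BC CML than CP CML, with none lower in these comparisons. Their summed level spanned 1317 to 4986 CPM for WT, 2661 to 7586 for miR-142 KO, 4529 to 7643 for CP CML and 5730 to 8101 for BC CML. Of 8 mature neutrophil genes, 6 were higher in miR-142 KO than WT and 6 were lower in BC CML than miR-142 KO (median log2 difference -3.67). Of 9 long-term stem cell genes, 6 were lower and 1 higher in miR-142 KO than WT, 7 were lower in CP CML than WT, and 5 were lower and 1 higher in BC CML than CP CML, so that the stem cell list moved in the direction of Flt3. Of 10 tested genes of plasmacytoid dendritic cells, which can carry Ccr9, 4 were lower and 2 higher, Ccr9 among them, in BC CML than CP CML, and their defining gene Siglech averaged 0.126 CPM in BC CML and 1.03 CPM in CP CML. Of 9 erythroid or megakaryocyte genes, 3 were higher and 1 lower in miR-142 KO than WT (median log2 difference 0.40). In CP CML against WT, 7 were lower and 1 higher. In BC CML 3 were lower than in CP CML, and 8 were lower than in miR-142 KO (median log2 difference -2.02 in the latter). The part of these lists in the Flt3 and Dntt results was not tested.

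Mice of 1 group differed among themselves, and the 10 genes split by how they varied. After subtraction of each group's mean from log2 CPM, Flt3 varied with Dntt over the 24 libraries (Pearson r = 0.833, Spearman rho = 0.727) and with Satb1 (r = 0.819, rho = 0.837), and Dntt varied with Rag1 (r = 0.875, rho = 0.789). Without miR-142 KO replicate 3 and BC CML replicate 1, the libraries farthest from the median for Flt3, these r were 0.707, 0.788 and 0.839. Il7r did not follow Flt3 (r = -0.041, and 0.169 without the same libraries). Flt3 and Rag1 gave r = 0.745 and rho = 0.637. These are descriptions over libraries that share preparation and depth, with no test.

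**Figure D4:**
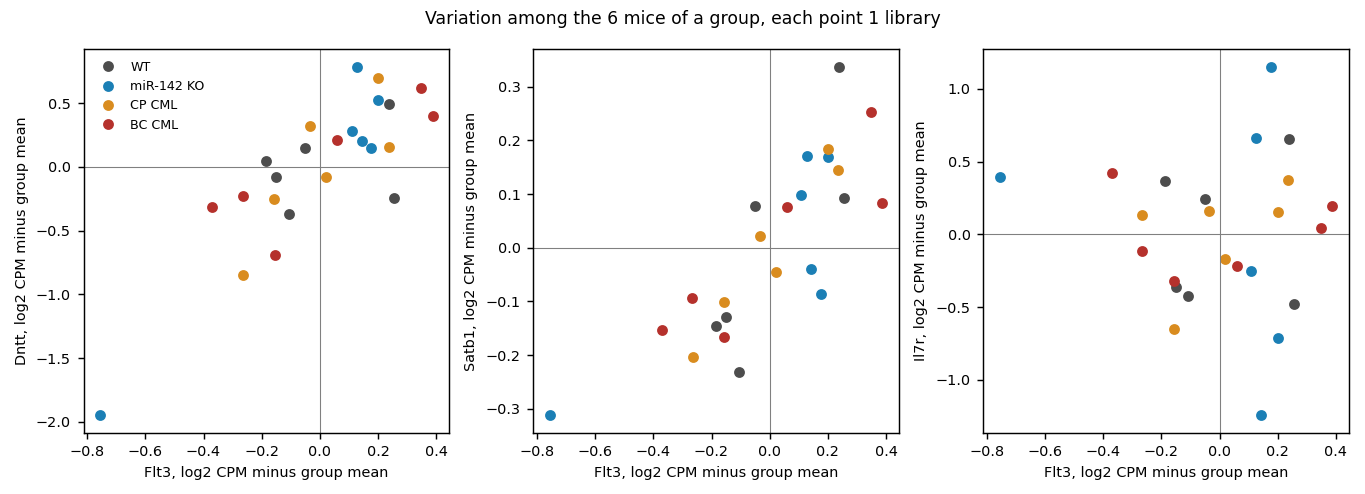
Deviation of each library from its group mean in log2 CPM, Flt3 on the horizontal axis and Dntt, Satb1 or Il7r on the vertical axis, with 6 libraries per group in colour. Dntt and Satb1 rose along with Flt3 within groups (r = 0.833 and 0.819), the lone point at the lower left being miR-142 KO replicate 3, while Il7r showed no such slope (r = -0.041).

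Genes averaging 1 CPM or more numbered 11753, and the 5 of them whose deviations were most like those of Flt3 over the 24 libraries were Bgn (r = 0.953), Sgsm1 (r = 0.924), Cd200 (r = 0.914), Sesn1 (r = 0.902) and Gprc5b (r = 0.901). Without the 2 libraries farthest from the median for Flt3, r was 0.801 to 0.923. Likeness within groups carried over to the group levels of some of these genes but not of all 5. Sgsm1, Cd200 and Gprc5b, like Flt3, were lower in miR-142 KO than WT (by 2.01, 1.91 and 1.37 on the log2 scale) and in BC CML than CP CML (by 1.12, 1.62 and 1.34). Bgn, the proteoglycan biglycan, had log2 differences of -0.34 and -0.45 that did not pass in these comparisons (adjusted p = 0.383 and 0.265), and Sesn1, a stress-induced sestrin, rose by 0.38 in BC CML against CP CML (adjusted p = 0.0134).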

How the data were processed

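RNA of sorted LSKs was made into libraries with the Kapa mRNA HyperPrep kit and sequenced as paired reads. Per the labels and the submitters' processing notes, the authors trimmed reads with Trimmomatic, aligned them to mm10 with STAR 2.6.0 and counted them with HTSeq 0.11.1. The deposited values are raw counts per gene, 16267965 to 24687077 per library.

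Counts were tested in R 4.3.3 with edgeR 4.0.16 (filterByExpr, TMM scaling, quasi-likelihood test, 24 libraries in 1 fit, Benjamini-Hochberg adjustment over 13520 genes, threshold 0.05), a procedure checked on simulated data. CPM used total counts, and likeness used log2 CPM with a prior count of 2. Alternatives were edgeR's likelihood ratio test (the test of the study), DESeq2 1.42.0, other scalings and filters, sex as a covariate, the 12 libraries compared and each library left out.

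The 10 genes and the lists were chosen with earlier results of these data known. The 4 genes per list called for miR-142 loss with the smallest p, the gate genes and the 5 genes most like Flt3 were picked by rule. Only a part of these genes is named in the text, a further choice made with their values known. Other marker genes were named after their values were seen.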

Additional observations from a re-analysis of the deposited data

Results flagged for a closer look

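Each of the 40 sets of 6 libraries (10 genes in 4 groups) was checked for a highest or lowest library set apart from the rest by Dixon's test at the 95% level, which chance alone passes in about 1 of 20 sets, and 5 sets, with 4 libraries in all, did so. Flt3 was at 205.3 CPM in miR-142 KO replicate 3, where the next mouse had 380.7 CPM. Rag1 was at 59.24 CPM and Ebf1 at 9.023 CPM in WT replicate 5, both the highest of the group. Ebf1 was at 0.08176 CPM in CP CML replicate 2, on 2 counts. Igll1 was at 3.94 CPM in miR-142 KO replicate 5. Dntt was the gene whose response to miR-142 loss differed between BCR-ABL and normal LSKs in the test of the interaction, by 1.526 on the log2 scale (edgeR's quasi-likelihood test, adjusted p = 0.0440).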

How the results depend on the processing

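The calls of Flt3, Satb1 and Notch1 in both comparisons for miR-142 loss, of Ccr9 in BC CML against CP CML and of Dntt in miR-142 KO against WT held in every alternative run. Of the fold changes of the 10 genes over all alternatives, 1798 kept direction and call, 45 lost the call, 33 gained it and 27 changed sign. With 1 library left out, the genes called numbered 3 to 8 in BC CML against miR-142 KO and 0 to 1 for the interaction, and all genes called between the sexes 50 to 250. For the interaction, the likelihood ratio test and DESeq2 each called 2 of the 10 genes, the fit without a filter 0 and the fit without miR-142 KO replicates 1 and 2, added after seeing the data, 4. DESeq2 called 891 genes for the interaction and 372 between the sexes, where the likelihood ratio test called 233. The causes of these changes were not tested.

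Sign changes were all in uncalled values. With 1 library left out, miR-142 KO against WT ran from -0.361 to 0.096 for Il7r, from -0.565 to 0.15 for Ebf1 and from -0.157 to 0.878 for Igll1, the interaction from -0.135 to 0.052 for Flt3 and from -0.107 to 0.385 for Vpreb1, and males against females from -0.013 to 0.09 for Notch1. The Flt3 interaction was -0.004 with RLE factors, -0.004 with DESeq2 and -0.016 with a filter of 1 CPM. Without miR-142 KO replicates 1 and 2, BC CML against miR-142 KO was 0.152 for Il7r and 0.243 for Ccr9. No paired analysis was possible because the replicate numbers follow accession order and only name mice. Low counts of Ebf1, Igll1 and Vpreb1 in the BCR-ABL groups limit what these libraries can show for the B lineage genes.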
